A study of Mus musculus with 2 samples.

Results

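The yolk sac VE-cadherin positive pool of mouse embryos at E11.5 was compared with the same pool at E9.5, where E counts embryonic days. The pool is made of nanowells, each imaged to hold 1 live cell, that the deposited well annotation assigns to the yolk sac and to the VE-cadherin positive gate. Wells with 500 or more detected genes were used, which were 325 of 326 wells at E9.5 and 357 of 388 wells at E11.5, or 682 of the 2954 wells in both tables. The shallowest well kept had 636 genes at E9.5 and 503 at E11.5, and the deepest well left out had 401 and 498 genes. At E11.5, 28 wells lay fewer than 50 genes above the limit and 17 wells at most 50 genes below it, so the limit passed through a populated range on that chip.

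The embryos were wildtype C57Bl/6. Cells of the yolk sac and of the aorta-gonad-mesonephros region (AGM) were stained with an antibody to VE-cadherin, the endothelial adhesion protein encoded by Cdh5, and with 7AAD, a dye that enters dead cells. Live single cells were sorted as positive or negative for VE-cadherin and dispensed on ICELL8 chips, a nanowell format for single-cell RNA sequencing. The positive control wells of each chip received stem cell RNA (E14FF, a mouse embryonic stem cell line), and there were negative control wells too. Here the E11.5 and E9.5 yolk sac VE-cadherin positive pools were the groups compared. The yolk sac VE-cadherin negative pool, the AGM VE-cadherin positive pool and both kinds of control well of each stage were set beside them. E9.5 cells were on 1 chip and E11.5 cells on the other, so stage and chip cannot be told apart from the sorted pools alone. Each pool is 1 sample, no replicate embryos can be told from the annotation, and no test across samples or p-value is possible.

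The yolk sac is an extra-embryonic membrane with an outer visceral endoderm, which secretes serum proteins and apolipoproteins, and an inner mesoderm that makes blood vessels and mesenchyme. Its endothelium arises beside the first blood cells, and some of its cells turn into blood progenitors through an endothelial-to-haematopoietic transition that needs the factor Runx1. The first wave of red cells is made in the yolk sac, enters the circulation and matures there, and these cells shift from early embryonic globin chains to later ones as they age.

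Counts in the gene rows shared by both tables summed to 1375985 in the E9.5 pool and 1194936 in the E11.5 pool. The median well held 3961 counts and 1504 genes at E9.5, against 3008 counts and 762 genes at E11.5. Haemoglobin genes took 17.7% of the counts at E9.5 and 35.6% at E11.5, mitochondrial genes 3.95% and 7.11%, and 1 row of ribosomal RNA (Gm42418) 9.44% and 16.8%. Levels are given in CPM, counts scaled to a total of 1000000 per pool. Stage differences are log2 ratios of CPM, E11.5 over E9.5, minus the median log2 ratio of all tested genes, which was -0.67 in the pool. A centred ratio of 0 therefore means that a gene moved like the median gene. Tested genes had at least 20 counts over the 2 pools, and a gene was called when its centred ratio was at least 1 in size (2-fold) with an exact 95% binomial interval off 0. The intervals cover counting error only. The positive control wells, 46 per chip, were treated in the same way and had a median ratio of -0.32. In sums over wells, fewer cells of a type and less RNA per cell cannot be told apart.

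Of 8517 tested genes, 982 (11.53%) were called higher and 911 (10.7%) lower at E11.5. These shares are the background for the counts of called list members given below. The control wells carry the same stem cell RNA on both chips by the labels, yet 184 of 2822 genes (6.52%) were called higher and 173 (6.13%) lower there. Of the genes tested in the pool, 2711 also had at least 20 control counts. Among them 155 were called higher in the pool (5.717%) and 438 lower (16.16%). Ratios at least 2-fold beyond the control ratio were found for 93 higher genes (3.43%) and 315 lower genes (11.62%). The other 5806 tested genes had too few control counts for that comparison, and 827 of them (14.24%) were higher and 473 (8.147%) lower. Without centring, 426 genes were higher and 2715 lower, so the higher genes were 13.6% of all calls in place of 51.9%. With TMM scaling they were 38.0%, and with totals that leave out haemoglobin and mitochondrial genes 32.3%. Leaving out the centring shifts every ratio by -0.67, so higher genes near the threshold are then below 2-fold. Of the 1893 calls, 1337 were also made without centring, 1111 in wells with 1000 or more genes and 1071 in wells with 3 or more of the endothelial genes described below.

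**Figure D1:**
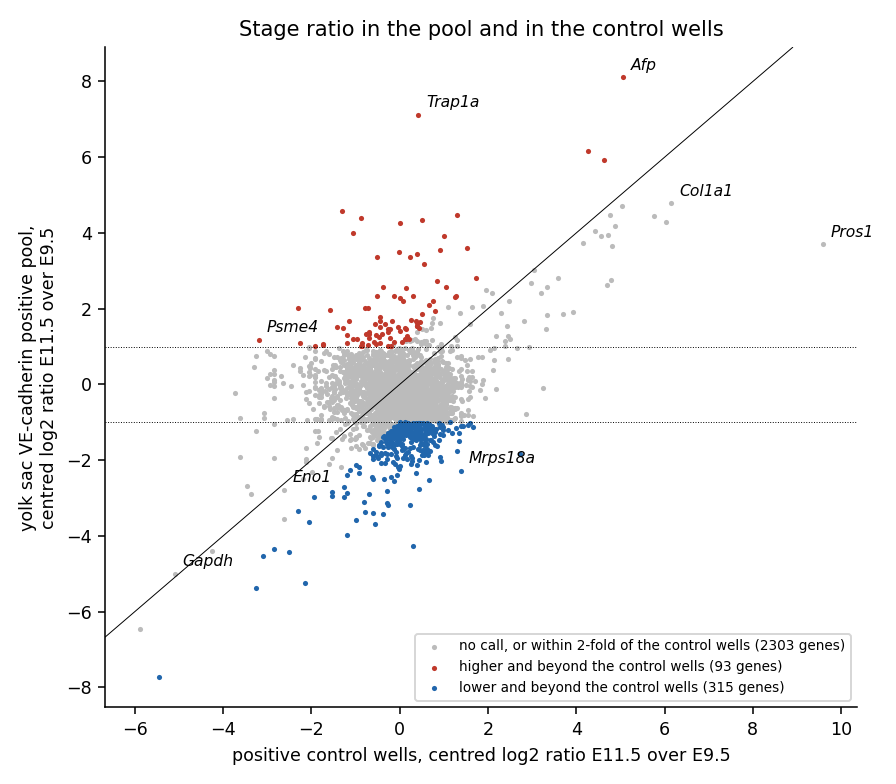
Each point is 1 of the 2711 genes with at least 20 counts in the pools and in the control wells; both axes are centred log2 ratios, E11.5 over E9.5, and the diagonal marks equal ratios. Gapdh and Eno1 lie near the diagonal at negative values, Afp lies high on both axes, and the 315 blue genes are lower in the pool by more than in the control wells.

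Globin genes held the largest shift in counts. The alpha-like chain Hba-x and the beta-like chains Hbb-bh1 and Hbb-y are embryonic globins, while Hba-a1, Hba-a2 and the adult beta genes are made at later stages too. The starts of 4 of these genes are shown because both the alpha-like and the beta-like makeup changed. Each run covers 250 bases before to 50 bases after the annotated start (RefSeq, GRCm38.p6, 5′ to 3′ on the gene's strand). Capitals mark CACCC and CCAAT, searched on both strands and free to overlap.
Hbb-y, chr7:103853158-103853457, minus strand: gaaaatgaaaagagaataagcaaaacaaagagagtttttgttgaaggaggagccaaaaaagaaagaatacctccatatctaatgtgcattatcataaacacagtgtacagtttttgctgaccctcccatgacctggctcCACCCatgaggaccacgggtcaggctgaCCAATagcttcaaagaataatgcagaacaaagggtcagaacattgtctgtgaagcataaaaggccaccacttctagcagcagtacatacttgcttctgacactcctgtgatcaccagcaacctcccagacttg
Hba-x, chr11:32276350-32276649, plus strand: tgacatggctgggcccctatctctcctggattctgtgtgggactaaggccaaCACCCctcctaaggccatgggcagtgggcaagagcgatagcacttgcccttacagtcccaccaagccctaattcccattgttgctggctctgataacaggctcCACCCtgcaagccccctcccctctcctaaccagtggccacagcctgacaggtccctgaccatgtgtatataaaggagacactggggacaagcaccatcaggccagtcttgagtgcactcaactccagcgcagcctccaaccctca
Hba-a1, chr11:32283422-32283721, plus strand: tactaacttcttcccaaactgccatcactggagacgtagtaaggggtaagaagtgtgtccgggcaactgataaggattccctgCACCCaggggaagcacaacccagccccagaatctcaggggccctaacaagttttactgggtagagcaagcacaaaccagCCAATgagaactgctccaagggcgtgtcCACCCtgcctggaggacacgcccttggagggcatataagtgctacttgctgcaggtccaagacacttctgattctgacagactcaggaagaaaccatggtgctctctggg
Hbb-bs, chr7:103827879-103828178, minus strand, an adult beta gene: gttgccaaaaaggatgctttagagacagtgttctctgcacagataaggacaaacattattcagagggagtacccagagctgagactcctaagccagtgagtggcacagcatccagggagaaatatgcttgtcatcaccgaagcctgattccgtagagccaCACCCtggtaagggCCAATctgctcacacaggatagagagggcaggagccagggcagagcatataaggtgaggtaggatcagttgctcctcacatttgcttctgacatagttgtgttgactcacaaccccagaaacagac
CACCC stands in all 4 of these windows and CCAAT in those of Hbb-y, Hba-a1 and Hbb-bs, but not in that of Hba-x. Of 27025 promoter windows of the same length, 56.7% hold CACCC, 37.9% hold CCAAT and 20.8% hold both. The letters are thus common, and they are given as a description of the windows only.

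Hbb-y held 78924 counts (57358 CPM) at E9.5 and 198047 counts (165740 CPM) at E11.5, a centred log2 ratio of 2.20 (95% interval 2.19 to 2.21). Hbb-bh1 held 54453 and 24142 counts, a ratio of -0.30, and was not called. As a share of the beta-like counts, Hbb-bh1 went from 40.5% at E9.5 to 9.62% at E11.5, Hbb-y from 58.7% to 78.9%, and the adult beta genes from 0.843% to 11.4%. Among alpha-like counts, Hba-x went from 54.9% to 26.5%, and Hba-a1 with Hba-a2 made up the rest. Hba-a1 (ratio 2.49) and Hba-a2 (ratio 1.88) are near-identical copies whose split between rows is uncertain, as is the split of the adult beta rows, which the tables name differently and which were therefore summed. Hbb-bh2 had 5 counts at E9.5 and 0 at E11.5. In the positive control wells the ratios were 2.47 for Hbb-y, 1.97 for Hba-a1, 1.37 for Hba-a2 and 0.25 for Hbb-bh1. The called globins Hbb-y, Hba-a1 and Hba-a2 thus did not lie 2-fold beyond the control wells.

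Wells of the stages did not overlap in this makeup. The Hbb-y share of Hbb-y and Hbb-bh1 counts ranged from 49.6% to 66.1% (median 59.1%) over the 325 wells at E9.5 and from 74.7% to 97.4% (median 89.6%) over the 357 wells at E11.5. Other wells of both chips did not overlap either. The highest E9.5 and lowest E11.5 shares were 68.7% and 76.6% in the AGM VE-cadherin positive pool. They were 68.3% and 72.8% in the yolk sac VE-cadherin negative pool. Positive control wells with 20 or more of these counts had 76.0% and 77.8%. The makeup was close to that of the negative control wells of the same chip, where Hbb-bh1 took 40.5% and 10.5% of beta-like counts, Hbb-y 58.0% and 78.8%, and adult beta 1.54% and 10.6%. The positive control wells, whose stem cell RNA should lack globins, gave 37.7% and 10.3% for Hbb-bh1. Haemoglobin took 23.1% and 23.8% of the few counts of negative control wells, and 0.921% and 2.39% of those of positive control wells. What part of the globin counts of the pool came from RNA outside the sorted cells was not tested.

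**Figure D2:**
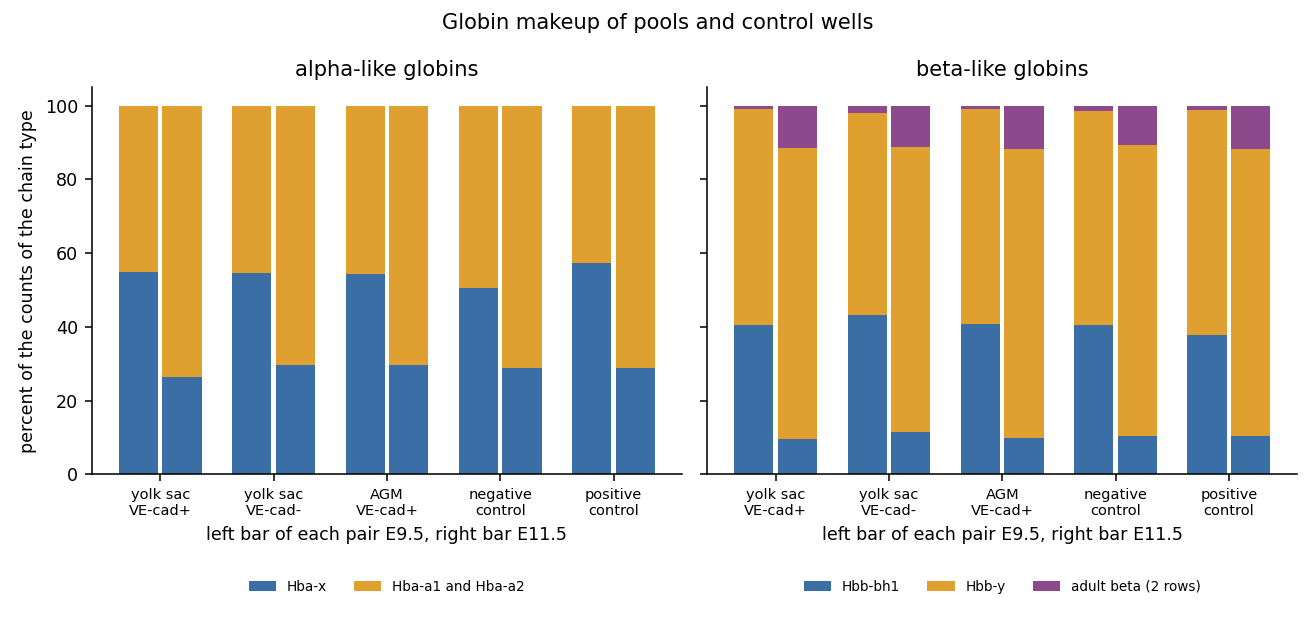
Bars give the percent of alpha-like (left panel) and beta-like (right panel) counts held by each globin gene, E9.5 left and E11.5 right in each pair, for 3 sorted pools and both kinds of control well. Hbb-bh1 falls from 40.5% to 9.62% in the yolk sac VE-cadherin positive pool, and the control wells of each chip show a similar makeup.

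The 12 genes of endothelial identity were all detected at both stages and none was called (0 of 12; background 22.23% in either direction). Their median centred ratio was -0.17, and their summed level went from 2334 CPM at E9.5 to 1357 CPM at E11.5, against 42.2 and 83.0 CPM in the VE-cadherin negative pool. Cdh5, the gene of the sorted protein, was at 485 CPM and 249 CPM, a ratio of -0.30 (-0.50 to -0.10). The adhesion molecule Pecam1 was at 250.7 and 156 CPM (ratio -0.02), and the VEGF receptors Kdr at 326 and 209 CPM (0.03) and Flt1 at 292 and 226 CPM (0.30). Tek, the angiopoietin receptor, was at 312 and 161 CPM (-0.29). These values lie within 2-fold of the median gene, and without centring Kdr was at -0.64 and Flt1 at -0.37. In wells with 3 or more of the 12 genes, which are chosen on these genes, Cdh5 was at 0.39, Tek at 0.44, Pecam1 at 0.77 and Flt1 at 1.02. None of 17 endothelial transcription factors and none of 9 arterial genes was called either, and their medians were -0.11 and 0.50, the second being -0.17 without centring.

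The markers were spread over fewer wells at E11.5. After each well was thinned to 2000 counts, 215 of 319 wells (67.4%) held 3 or more of the 12 identity genes at E9.5 and 97 of 331 (29.3%) at E11.5. In the VE-cadherin negative pool 0 of 304 and 0 of 362 did, which allows shares of up to 0.987% and 0.829%. Before thinning the shares were 87.7% and 39.5% in the positive pool, and 2.95% and 0.264% in the negative pool. Thinning equalised total counts, of which haemoglobin, mitochondrial and Gm42418 rows took a larger part at E11.5. The other rows held 946670 of 1375985 counts of the positive pool at E9.5 and 492270 of 1194936 at E11.5. A thinned E11.5 well thus had on average fewer counts left for marker genes. What part this had in the lower shares was not tested. Cdh5 itself had a count in 59.3% and 31.7% of thinned wells, beside 0.658% and 2.76% in the negative pool. At E11.5, 48 of 357 unthinned wells had none of the 12 genes, against 2 of 325 at E9.5. The pool at E11.5 is therefore called by its gate here, since a majority of its wells did not show 3 endothelial genes at this depth.

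**Figure D3:**
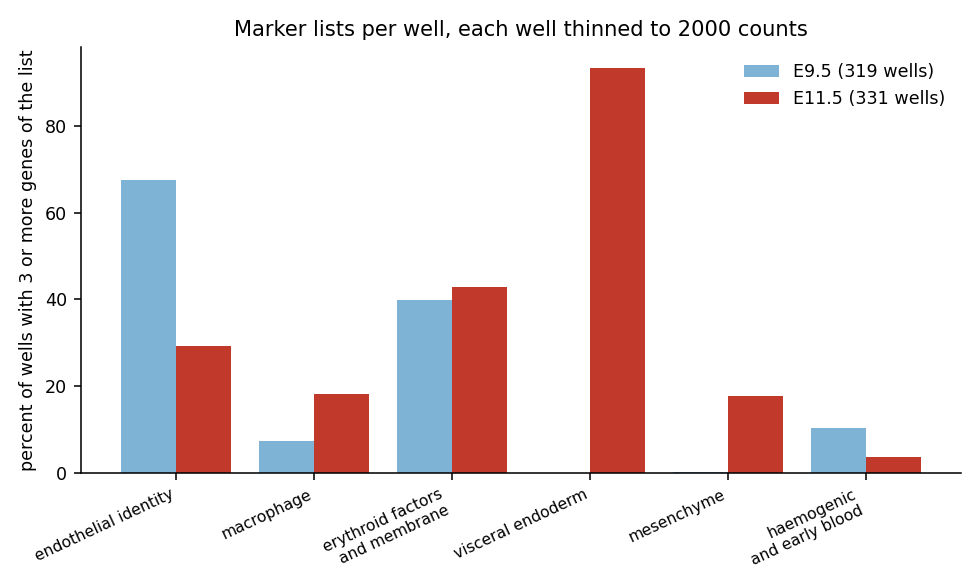
Bars give the percent of yolk sac VE-cadherin positive wells with 3 or more genes of a list after thinning to 2000 counts (319 wells at E9.5, 331 at E11.5). The endothelial bar is 67.4% at E9.5 and 29.3% at E11.5, and the visceral endoderm bar is 0 at E9.5 (0 of 319 wells allows up to 0.940%) and 93.4% at E11.5.

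Among genes of vessel function, Fabp4, a fatty acid carrier of capillary endothelium, had 2 counts (1.45 CPM) at E9.5 and 78 counts (65.3 CPM) at E11.5, a ratio of 6.16 (4.26 to 9.23). Most of its counts lay in endothelial wells: wells with 3 or more identity genes held 63 of the 78 counts (127 CPM), and the other wells 15 (21.5 CPM). It had 0 counts in the control wells of both chips. 1 well held 33.3% of its E11.5 counts, and without the top wells the ratio was 6.57. Vwf, the clotting factor of endothelial granules, was at 15.3 and 48.5 CPM (ratio 2.34), and at 16.7 and 78.4 CPM in wells with 3 or more identity genes. Lpl, the lipase anchored on vessel walls, had a ratio of 1.16 and Apoe, a lipid carrier, 1.12. With Fabp4 they were the 3 of 7 lipid uptake genes called higher (background 11.53%). Lpl was not higher in wells with 3 or more identity genes (13.5 and 12.1 CPM, ratio 0.34), and 16 of its 22 counts at E11.5 lay in the other wells. Apoe was just under 2-fold in those wells (0.95), with equal weight per well (0.94), after thinning (0.95) and with TMM scaling (0.95).

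Mmrn1, the platelet and endothelial protein multimerin, had 94 counts at E9.5 (68.3 CPM) and 1 at E11.5 (0.837 CPM), a ratio of -5.68 (-11.0 to -3.17). In the AGM VE-cadherin positive pool, where 2125 of 8502 tested genes (24.99%) were called in either direction, its ratio was 0.12. Its relative Mmrn2 was at 63.2 and 18.4 CPM (-1.11). The tight junction gene Cldn5 (ratio -1.26) and the caveola gene Cav1 (-1.04) were the 2 of 12 junction genes called lower (background 10.7%). In wells with 3 or more identity genes Cldn5 was at -0.65, Cav1 at -0.42 and Mmrn2 at -0.71. Of 12 genes of VEGF and angiopoietin signalling, the ligands Vegfc (-1.40), Vegfb (-2.30) and Angpt1 (-1.13) were called lower (background 10.7%) and none higher. In wells with 3 or more identity genes Vegfb was at -0.66 and Angpt1 at -0.42, which are no longer 2-fold. Of 16 basement membrane and endothelial matrix genes, Vwf and Lamb1 (1.04), a laminin chain, were higher (background 11.53%), and Mmrn1 and Mmrn2 lower (background 10.7%).

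The scavenger and lymphatic-type list covers receptors that take up waste from blood. Of its 15 tested genes 5 were called higher and 1 lower, and its median of 0.41 was -0.26 without centring. The endocytic adaptor Dab2 was at 273 and 598 CPM (ratio 1.80), the mannose receptor Mrc1 at 368 and 567 CPM (1.29), and the transcription factor Maf at 208 and 299 CPM (1.19). Ehd3 (1.20) and Gpx3 (1.05) also rose, and the scavenger receptor Scarf1 fell (-1.60, but -0.39 after thinning). Mrc1 and Maf are made by macrophages too, and Mrc1 was at 555 CPM in E11.5 wells with 3 or more identity genes and 577 CPM in the others.

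Stab2, a hyaluronan scavenger receptor, was at 944 CPM at E9.5 and 789 CPM at E11.5, a ratio of 0.41 that was not called and was -0.26 without centring. In wells with 3 or more identity genes it was at 984 and 1437 CPM (ratio 1.05 with those wells alone), and in the other E11.5 wells at 327 CPM. Lyve1, the hyaluronan receptor of lymphatic and yolk sac endothelium, was at 956 and 334 CPM, a ratio of -0.85 (-1.02 to -0.69). In the AGM VE-cadherin positive pool Stab2 was at 16.4 and 78.5 CPM (ratio 2.56), far below the yolk sac at both stages, and Lyve1 had a ratio of 2.20. The interval of neither gene in the yolk sac overlapped that in the AGM pool. These intervals cover counting error only, each pool is 1 sample, and the difference between the pools was not tested.

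**Figure D4:**
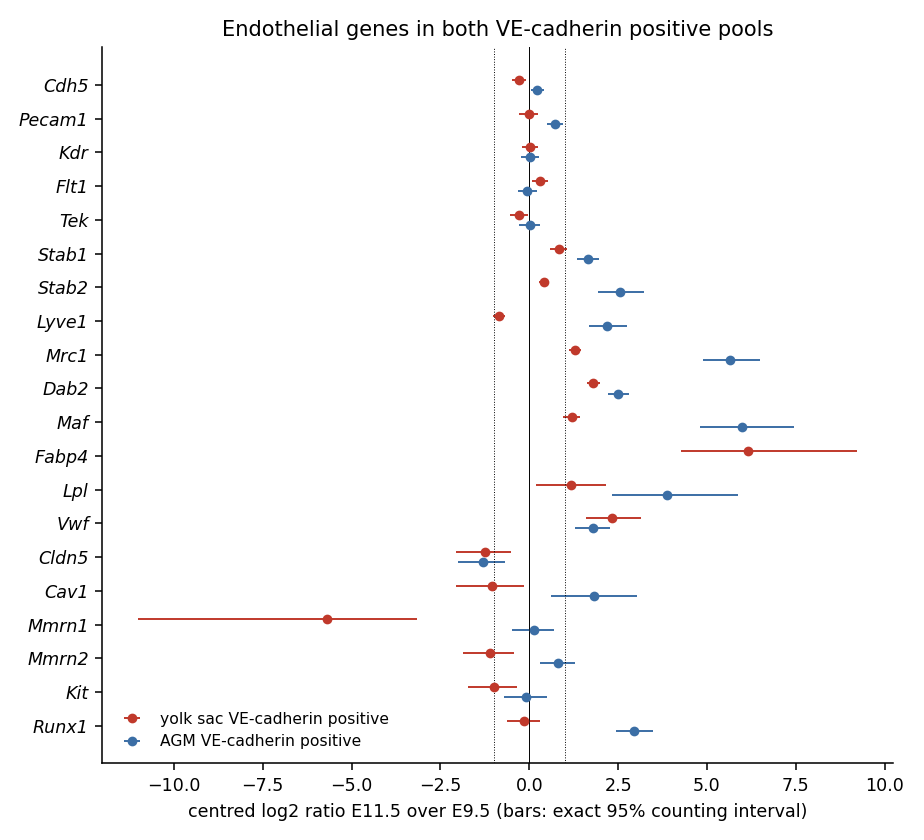
Points are centred log2 ratios, E11.5 over E9.5, of 20 genes in the yolk sac (red) and AGM (blue) VE-cadherin positive pools, with exact 95% counting intervals; dotted lines mark 2-fold, and Fabp4 had too few counts in the AGM pool. The core markers Cdh5 to Tek lie within 2-fold in both pools, Fabp4 is far to the right and Mmrn1 far to the left in the yolk sac, and Stab2 and Lyve1 lie further right in the AGM pool.

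Blood-forming genes showed no shared direction. Runx1, the factor needed for the endothelial-to-haematopoietic transition, was at 87.2 CPM at E9.5 and 49.4 CPM at E11.5, a ratio of -0.15 (-0.63 to 0.31), and none of the 8 transition factors was called. The stem cell factor receptor Kit was at 64.0 and 20.1 CPM and lay at the 2-fold threshold (interval -1.72 to -0.34; -0.21 in wells with 3 or more identity genes). Among 13 haemogenic and early blood genes, Adgrg1, an adhesion receptor of emerging blood cells (79.9 and 8.37 CPM, ratio -2.59), and the repressor Gfi1b (-1.96) were also lower. Ptprc, the leukocyte antigen CD45, was higher (13.8 and 32.6 CPM, ratio 1.91), as were the myeloid factor Spi1 (1.75) and the adhesion receptor Cd44 (1.38). The integrin Itga2b was at 29.1 and 10.9 CPM (-0.75, not called).

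Most macrophage genes were higher at E11.5: 10 of 16 were called higher and 1 lower, with a median of 1.27 (0.61 without centring). Csf1r, the growth factor receptor of macrophages, was at 7.99 CPM at E9.5 and 56.1 CPM at E11.5 (ratio 3.48, 2.55 to 4.55). The coagulation factor subunit F13a1 was at 14.5 and 147 CPM (4.01), the cytoskeletal gene Aif1 at 5.81 and 35.1 CPM (3.26) and the complement gene C1qb at 13.1 and 46.9 CPM (2.51). Most counts of Csf1r lay outside the wells with 3 or more identity genes, which held 14 of its 67 counts at E11.5. Thinned wells with 3 or more macrophage genes were 24 of 319 at E9.5 and 60 of 331 at E11.5, and 13 and 9 of them also held 3 or more identity genes. Before thinning these shares did not rise, at 80 of 325 wells (24.6%) and 84 of 357 wells (23.5%). Lyz2, lysozyme, went the other way with 102 and 15 counts (ratio -1.90). Pf4, a chemokine of platelets and macrophages, was at 52.3 and 243 CPM (2.88), while the platelet integrin subunit Itgb3 had 49 and 2 counts (-3.74).

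The largest rises were in genes of visceral endoderm, of which 12 of 13 tested were called higher (background 11.53%), with a median of 6.12. Afp, alpha-fetoprotein, had 34 counts (24.7 CPM) at E9.5 and 5129 counts (4292 CPM) at E11.5, a ratio of 8.11 (7.62 to 8.64). The apolipoprotein Apoa2 was at 3.63 and 593 CPM, the thyroid hormone carrier Ttr at 32.0 and 1373 CPM, Apoa1 at 15.3 and 1019 CPM and the calcium-binding protein gene S100g at 2.18 and 310 CPM. Fgb, a fibrinogen chain, had 2 and 228 counts. The amine oxidase gene Maob, the fibrinogen chain Fgg and kininogen Kng1 had 0 counts at E9.5. Against a floor of 3 counts per pool, their E11.5 levels were 52.4-fold, 51.8-fold and 40.2-fold higher relative to the median gene. The lower interval ends of these centred log2 ratios were 5.38, 5.37 and 4.99. The summed level of the list's 17 shared genes went from 148 CPM at E9.5 to 8667 CPM at E11.5.

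The spread over wells differed between these RNAs. Ttr had a count in 89.9% of E11.5 wells of the pool, Apoa1 in 84.9% and Apoa2 in 77.9%, but S100g in 47.6% and Fgb in 30.0%. Maob, Fgg and Kng1 had a count in 57, 55 and 50 of 357 wells. Afp was in all wells of the pool and in control wells of the same chip. In the positive control wells at E11.5 Apoa1 had 11 counts, Ttr 3, Apoa2, S100g, Maob and Fgg 1 each, and Fgb and Kng1 0. Those wells held 146916 counts in all, so counts of 0 there do not show absence. In the negative control wells at E11.5 Ttr had 15 counts in 12 of 47 wells, and Apoa1 and Apoa2 had 2 counts each. At E9.5 the negative control wells had 1 count of Ttr and 0 of Apoa1 and Apoa2. At E11.5, Afp had a count in 357 of 357 wells of the pool, with a median of 9 counts and at most 597 in a well, and it was at 4801 CPM in wells with 3 or more identity genes and 3929 CPM in the others. It had a count in 24 of 47 negative control wells at E11.5 (1837 CPM), against 1 of 48 at E9.5, and in 24 of 46 positive control wells, against 0 of 46. In the positive control wells its ratio was 5.06, computed against a floor of 3 counts, with a lower interval end of 4.69. The yolk sac VE-cadherin negative pool had 59.9 CPM of Afp at E9.5 and 1769 CPM at E11.5, and the AGM VE-cadherin positive pool 2.11 and 246 CPM. The list's summed level in negative control wells was 624 CPM at E9.5 and 3497 CPM at E11.5. These levels rest on 4 of 6413 counts and 59 of 16873 counts. Wells of the pool with 3 or more genes of the list were 1.85% at E9.5 and 99.4% at E11.5 before thinning. The part of RNA from outside the cells in these ratios was not tested.

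Mesenchymal genes behaved alike, with 11 of 12 called higher and a median of 3.91. The fibrillar collagen Col1a1 had 22 and 331 counts (ratio 4.78), and in the positive control wells 1 and 27 counts (6.15). The proteoglycan Lum had 1 and 73 counts (7.06) and the proteoglycan Gpc3 14 and 171 (4.48). The summed level of the 15 mesenchyme genes was 180 and 1092 CPM in the pool, and 90.3 and 688 CPM in the AGM VE-cadherin positive pool. In the yolk sac VE-cadherin negative pool it was 963 and 10163 CPM. In negative control wells it was 1092 and 4386 CPM, which rest on only 7 and 74 counts. The smooth muscle genes Acta2 (3.47), Tagln (2.04) and Myl9 (1.87) were the 3 of 5 called higher. The summed level of the smooth muscle list was 73.4 and 161.5 CPM in the pool, below the 171 and 299 CPM of the positive control wells. In the yolk sac VE-cadherin negative pool it was 193.5 and 1799 CPM. Pros1, the anticoagulant protein S, was at 49.4 and 403 CPM in the pool (ratio 3.70), but its control counts were 4 and 1175 (9.59).

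Of 16 red cell genes tested, 7 were called higher, 1 lower and 8 not called, with a median of 0.61 (-0.06 without centring). Among the higher genes, which encode proteins of the red cell membrane and its skeleton, the anion exchanger Slc4a1 was at 155 CPM at E9.5 and 275 CPM at E11.5, and Ermap, Ank1, Rhd, Epb41 and Epb42 were also called. Gata1 was at 45.8 and 13.4 CPM (-1.11), and Klf1, another red cell factor, at 28.3 and 12.6 CPM (-0.51, not called). In wells with 1000 or more genes, of which 103 remained at E11.5, Slc4a1 was at 0.21, Ank1 at -0.49, Epb41 at 0.33, Epb42 at 0.46, Ermap at 0.47 and Rhd at 0.50, and none of these was called there. Among genes of haem synthesis and iron, the haem enzyme genes Alas2 (1.37) and Fech (1.25), the iron importer Slc25a37 (1.39) and the ferritin chain Fth1 (1.49) were higher. In wells with 1000 or more genes these 4 were also under 2-fold (Alas2 0.46, Fech 0.09, Slc25a37 0.55, Fth1 0.71). Alad (-1.78) and the other ferritin chain Ftl1 (-2.97) were lower, and Ftl1 had a control ratio of -1.27.

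Calls among genes of energy use and protein synthesis were mostly lower, and 10.7% of all tested genes were called lower. Of 16 glycolysis genes 8 were called lower and none higher, with a median of -0.85. The list's median was -1.015 in the AGM VE-cadherin positive pool and -1.55 in the yolk sac VE-cadherin negative pool. Gapdh had 1693 and 29 counts (ratio -5.00), and its control counts were 896 and 10 (ratio -5.09) of the control RNA, which by the labels is the same on both chips. Eno1 was at -2.78 in the pool and -2.61 in the control wells, and Pgk1 at -1.91 and -3.63. Ldha, lactate dehydrogenase, was at 906 and 212 CPM (-1.43), with a control ratio of 0.08, and was the 1 of 14 glycolysis genes with control counts that lay beyond the control. Gapdh, Eno1, Ftl1 and ribosomal protein genes have near-identical copies elsewhere in the mouse genome, so their counts depend on how shared reads were counted.

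Of 79 ribosomal protein genes 20 were called lower and none higher. Their median was -0.75 in the pool and 0.66 in the control wells, and 17 of 78 lay lower beyond the control. The other sorted pools were lower too, with medians of -0.73 in the AGM VE-cadherin positive and -1.45 in the yolk sac VE-cadherin negative pool. Rpl10 was at 1758 and 320 CPM (-1.79, control -0.09), Rps16 at 1538 and 336 CPM (-1.53, control 0.27) and Rpl35 at 2409 and 318 CPM (-2.26, control -1.13). Of 22 nuclear genes of the respiratory chain 5 were lower, among them Cox8a (1163 and 213 CPM, ratio -1.78), while 3 of 7 mitochondrially encoded genes were higher (median 0.83). The summed level of those 7 genes was near level, at 9271 CPM at E9.5 and 9309 CPM at E11.5, so they were higher relative to the median gene. Of 17 DNA replication genes 4 were lower, such as Mcm3 (-1.38) and Tyms (-1.21), and of 20 mitosis genes 2 were lower, Ccnb1 and Hmgb2, a share near that of all tested genes. The medians of the replication and mitosis lists were -0.64 and -0.35, and none of their genes was called higher. These medians were -0.71 and -0.35 in the AGM VE-cadherin positive pool, and -1.59 and -1.02 in the yolk sac VE-cadherin negative pool. Hmga2, a chromatin protein of fetal cells, was at 120 and 20.1 CPM (-1.91), Hmga1 at 35.6 and 3.35 CPM (-2.74) and the RNA-binding Igf2bp2 at -1.14, while the cell cycle inhibitors Cdkn1b (1.62) and Cdkn1c (1.27) were higher. Cdkn1b was at 0.82 in wells with 1000 or more genes, and Igf2bp2 at -0.81 in wells with 3 or more identity genes.

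Of 15 immediate early and handling stress genes 9 were called higher and 1 lower, with a median of 1.08, among them Fos (13.1 and 33.5 CPM, ratio 2.02), Jun (1.21) and the heat shock gene Hspa1a (1.14). The same list had a median of 1.94 in the yolk sac VE-cadherin negative pool. Of 8 retained nuclear RNAs 5 were higher, among them Malat1 (5427 and 10605 CPM, ratio 1.63, control 0.72) and Neat1 (12.4 and 67.0 CPM, ratio 3.11). These genes were higher in the same chip as the larger mitochondrial share and the smaller number of genes per well, and what part sample handling had in them was not tested. Of 15 imprinted growth genes 7 were higher and none lower, with Nnat at 5.42, Dlk1 at 3.46, Peg10 at 1.81 and the H19 RNA at 1424 and 1998 CPM (1.15, control 2.40). Hsd3b6, a steroid enzyme, had 18 and 606 counts (5.94). It was at 30.7 and 390 CPM in the yolk sac VE-cadherin negative pool and at 24.3 and 237 CPM in the AGM VE-cadherin positive pool. At E11.5 it was at 303 CPM in wells with 3 or more identity genes and 653 CPM in the others. Negative control wells had 0 counts of it at E9.5 and 7 at E11.5.

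Calls in the Notch, BMP and interferon lists stand beside a background of 22.23% of tested genes called in either direction. Of 11 Notch pathway genes the target Hes1 (1.02) was higher and the glycosyltransferase Mfng (-1.55) lower. Of 17 BMP and TGF-beta genes, the inhibitor Smad7 (2.19) and the target Id2 (1.46) were higher and Id1 (-1.35, but -0.61 in wells with 1000 or more genes) lower. Of 9 interferon and Ifitm genes, Ifitm1 (1.42, but 0.39 without the top wells) was higher, and Oasl2 (-2.19) and Ifitm3 (-1.10, but -0.52 in wells with 3 or more identity genes) were lower. Of 11 factors of later mesoderm Tbx20 (5.39), Ebf1 (1.15) and Tcf7l2 (1.09) were higher.

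**Figure D5:**
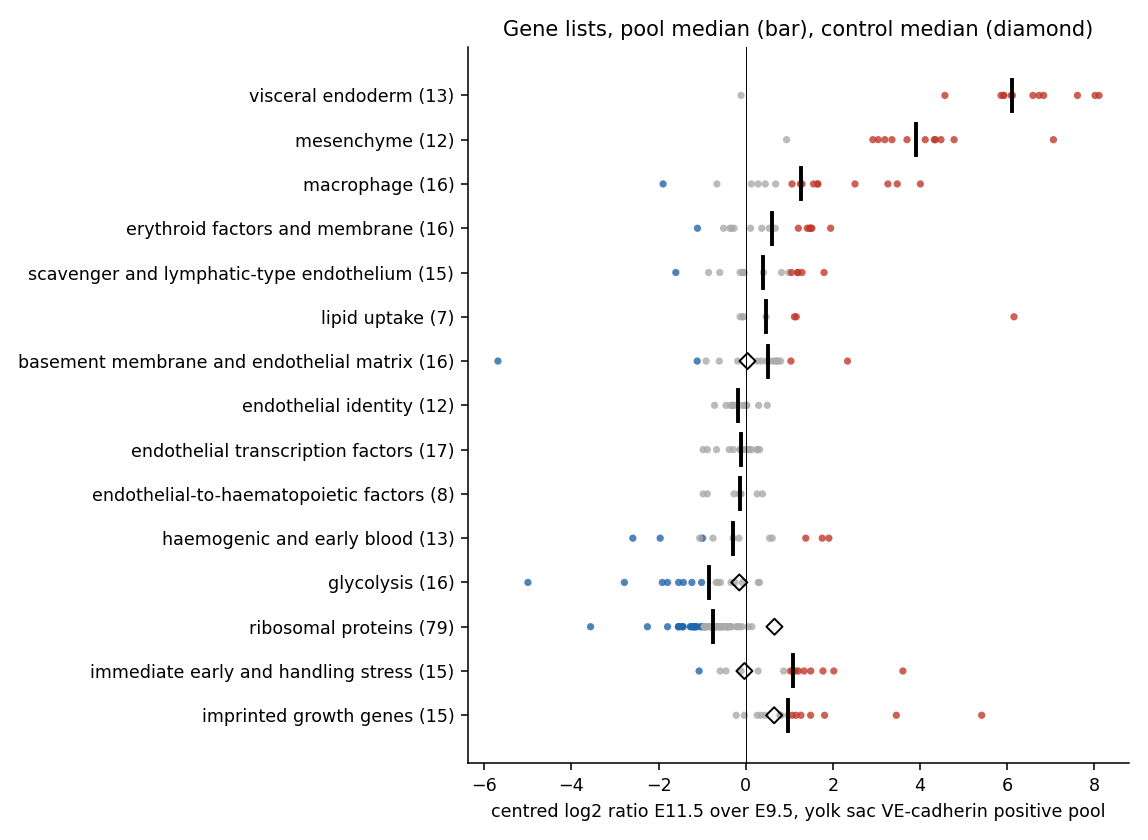
Points are centred log2 ratios of the tested members of 15 lists (numbers in brackets), red where called higher, blue where called lower and grey where not called; the bar is the list's median and the diamond the median of its members in the positive control wells, drawn where at least 3 had control counts. Visceral endoderm and mesenchyme lie far to the right, endothelial identity lies around 0, and ribosomal protein genes are below 0 in the pool and above it in the control wells.

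Among other genes with at least 20 control counts, those furthest beyond the control wells included Trap1a, a germline and trophoblast antigen gene, with 1 and 76 counts (ratio 7.12, control 0.42), and Rhox5, with 30 and 149 counts (3.18, control 0.56). The epithelial keratin Krt18 had 5 and 55 counts (4.33, control 0.50) and the mitochondrial leucyl-tRNA synthetase Lars2 701 and 1547 counts (2.01, control -0.79). Psme4, a proteasome activator, had a pool ratio of 1.18 and a control ratio of -3.19, so its place on this list came mostly from the control wells. The same held for Kdm3a (1.07, control -1.73) and Zfp292 (1.05, control -1.73), and in part for Rnf10 (1.30, control -1.19) and Ptprk (1.68, control -1.14). Their control counts at E11.5 were only 4, 4, 3 and 5. Lower beyond the control wells were the mitochondrial ribosomal gene Mrps18a (116 and 13 counts, ratio -2.29, control 1.40), the nuclear pore gene Aaas (70 and 3 counts, -3.67, control -0.55), Hypk (251 and 34 counts, -2.01, control 0.94) and the prohibitin gene Phb (117 and 19 counts, -1.75, control 1.30). Among genes with few control counts, the erythroid membrane gene Smim1 had 373 and 43 counts (-2.25), Clec1b, a receptor of platelets, 110 and 10 (-2.59), the matrix linker Hapln1 157 and 16 (-2.42) and the detoxifying enzyme Gstp1 99 and 3 (-4.17). Pigl (-3.61) and Plxdc1 (-3.79) drew 52.8% and 34.2% of their E9.5 counts from 1 well each, and without the top wells they were at -2.94 and -4.79.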

How the data were processed

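The authors deposited whole-number counts per gene row and nanowell, 1 table per chip, with a table of well annotations. Per the submitters' processing notes, reads were checked with FastQC, trimmed with cutadapt and mapped with STAR to mm10 (GRCm38). The counting tool, gene annotation, software versions and use of molecular identifiers are not given in the sources used here, so copies of 1 molecule may be counted more than once. The tables hold 20575 and 20823 gene rows, of which 18323 are named alike and were used.

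Raw counts were summed over wells with 500 or more genes and divided by the pool total (CPM). Log2 ratios were centred on the median of genes with at least 20 counts over the 2 pools, with exact 95% conditional binomial (Clopper-Pearson) intervals. A pool at 0 counts was set to 3 counts. Shares of wells were also taken after thinning each well to 2000 counts at random. Of 473 barcodes shared by the tables, 0 were shared between the compared wells. Doublets were excluded at the sort per the labels, and no further caller was run.

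Named genes were called genes with at least 50 counts and 10% of wells in the higher pool, protein-coding, and neither mitochondrial, ribosomal, globin nor unnamed. In each direction these were 12 furthest beyond the control wells, 12 with fewer than 20 control counts and the firmest intervals, and 8 that moved most in both. Globins and 14 endothelial and blood genes were reported whatever their values, and called members of 39 gene lists served as examples. The members and lists were chosen with earlier results of these data known. Scripts were tested on simulated data. Software was Python 3.11.15 with numpy 2.4.6, pandas 2.3.3 and scipy 1.17.1, and R 4.3.3 with edgeR 4.0.16 for TMM.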

Additional observations from a re-analysis of the deposited data

Results flagged for a closer look

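The yolk sac and AGM VE-cadherin positive pools were called in opposite directions under the same contrast for 26 genes. Of the 982 genes higher in the yolk sac pool, 773 were tested in the AGM pool, where 414 were also called higher and 12 lower. Of the 911 lower genes, 846 were tested there, and 441 were also called lower and 14 higher. The 5 of the 26 genes that are named genes or list members are given here. The differences were not tested, since each pool is 1 sample. Lysozyme, Lyz2, had a centred log2 ratio of -1.90 in the yolk sac pool and 7.79 in the AGM pool, a difference of -9.69. The granule protease Prtn3 was at -1.71 and 5.23, a difference of -6.94. The vessel growth factor Angpt1 was at -1.13 and 2.34, a difference of -3.47, and the caveola gene Cav1 at -1.04 and 1.81, a difference of -2.86. The smooth muscle gene Tagln went the other way, at 2.04 and -1.74, a difference of 3.78.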

How the results depend on the processing

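No paired analysis was possible because each stage has 1 pool on 1 chip. Against 982 higher and 911 lower genes, plain totals without centring gave 426 and 2715, totals without haemoglobin and mitochondrial genes 1433 lower, a minimum of 100 counts 268 and 308, and a minimum of 1 count 1634 lower. The number of genes tested differs under the last 2. Of the 93 higher and 315 lower genes beyond the control wells, thinned wells gave 35 and 179, plain totals 34 and 849, a minimum of 100 counts 59 and 190, and a minimum of 1 count 569 lower. The cause of the other changes was not tested. A limit on mitochondrial counts, no filter on wells, 1000 or more genes, wells with 3 or more endothelial genes, equal weight per well and TMM scaling kept all 4 counts within 1.5 times. No called gene of the pool was called the opposite way under any of these settings. Among the called genes of the 223 followed, Ank1 alone changed sign, to -0.49 in wells with 1000 or more genes. Uncalled genes changed sign too, among them Stab2 (-0.26), Flt1 (-0.37), Kdr (-0.64) and Hba-x (-0.09) without centring. Globin shares moved by at most about a percentage point. With 1 pool per stage, depth limits genes under 20 counts, which were not compared.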

Other observations

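The genes in this paragraph were chosen after their values were seen, among the 26 called in opposite directions in the yolk sac and AGM VE-cadherin positive pools. Plek, a protein of platelets and leukocytes, had a centred log2 ratio of -1.63 in the yolk sac and 5.14 in the AGM. The GTPase Rac2 was at -1.69 and 4.62, and the phospholipase Plcg2 at -1.13 and 2.14. Esm1, a gene of sprouting endothelium, was at 1.36 in the yolk sac and -2.01 in the AGM. These differences were not tested.

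Of 11 hypoxia response genes 3 were called higher and 1 lower in the yolk sac pool. The mitophagy gene Bnip3 was at 17.4 CPM at E9.5 and 33.5 CPM at E11.5 (ratio 1.61, control -0.33), and the collagen hydroxylase P4ha2 had 5 and 16 counts (2.55). Of 8 venous genes the amino acid transporter Slc7a7 was called higher (1.46).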
